A study of Potamopyrgus antipodarum with 6 samples.

Results

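The snail sequence that the study named sox2 was examined for DNA methylation in 6 pools of foot tissue DNA of Potamopyrgus antipodarum, a freshwater snail of which the study describes all sampled populations as 1 parthenogenetic clone. Windows of 100 bp that start in the annotated span were taken, with the windows beside them out to the first run of 9 windows without a read in any pool. This gave 6 windows, from 61686601 to 61687200 of a transcriptome whose contigs were joined end to end, out of 739509 windows in all. The annotated span holds 4 of them (61686801 to 61687200), and the other 2 flank it on one side. River 1 (the Snake River main channel, with fast current) gave pools 7, 8 and 9, and Lake 2 (Lake Washington, with no current) gave pools 4, 5 and 6, each of 10 wild snails by the labels. The pools are numbered as in the deposited table, since the titles of the River 1 samples carry other numbers. The snails carry no transgene or treatment, the study speaks of adults without giving an age, and all were held in water in the laboratory for several days before dissection.

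SOX2 belongs to a family of transcription factors that bind DNA through an HMG box, a domain that bends the double helix. In vertebrates it keeps embryonic stem cells and neural progenitors undifferentiated, and it is known as one of the factors that can return a differentiated cell to pluripotency. In molluscs, DNA methylation lies mostly within the bodies of genes and only a part of the genome carries it. The name sox2 was given by a sequence search against other species and stands beside a locus name of another species, and the read counts do not bear on whether the name is right. Because the reference is made of transcripts, the windows lie in transcribed sequence, but exon borders and the coding part of this contig are not given in the sources used here.

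DNA was sheared and captured with an antibody that binds methylated cytidine (MeDIP), so more reads over a window stand for more captured DNA from it. No library of DNA taken before the capture was used here, and more methylated copies and more copies of the sequence cannot be told apart. A pool in which every snail is moderately methylated also cannot be told apart from one in which a few are strongly methylated. The values are raw counts of reads in each window, as deposited, and they summed to between 3317802 and 4398017 per pool in River 1 and between 3838302 and 4994212 in Lake 2. In the Lake 2 pools a read was counted 1.50 times on average, so adjacent windows share reads. Log2 fold changes are River 1 minus Lake 2, from edgeR's quasi-likelihood fit over the 151608 windows that held 10 or more counts in all.

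More reads fell on the sox2 span in River 1 than in Lake 2, with means of 50.3 and 16 counts per pool, a ratio of 3.15, and the pools of River 1 differed widely among themselves. The study called this span on the same 6 pools and the same contrast, so its difference between the sites is described here and not tested. The span held 25, 64 and 62 counts in River 1 (pools 7, 8 and 9), against 26, 13 and 9 in Lake 2 (pools 4, 5 and 6). Pools 8 and 9 were high and pools 5 and 6 were low, while pool 7 of River 1 and pool 4 of Lake 2 had nearly the same count.

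After each pool was scaled to the same total (CPM, by the TMM method of edgeR), the summed span had 6.43, 20.5 and 13.8 CPM in pools 7, 8 and 9 of River 1, against 5.05, 3.15 and 2.42 CPM in pools 4, 5 and 6 of Lake 2. On this scale every pool of River 1 lay above every pool of Lake 2, and the closest pair, pool 7 over pool 4, stood at a ratio of 1.27. The means were 13.6 ± 7.04 CPM in River 1 and 3.54 ± 1.35 CPM in Lake 2 (SD, n = 3 pools each), a ratio of 3.84 and a log2 ratio of 1.94. The coefficient of variation was 51.8% among River 1 pools and 38.2% among Lake 2 pools. The mean of pools 8 and 9 was 17.2 CPM, 4.85 times the mean of Lake 2 and 2.67 times pool 7. Pool 7 itself was 1.82 times the mean of Lake 2.

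**Figure D1:**
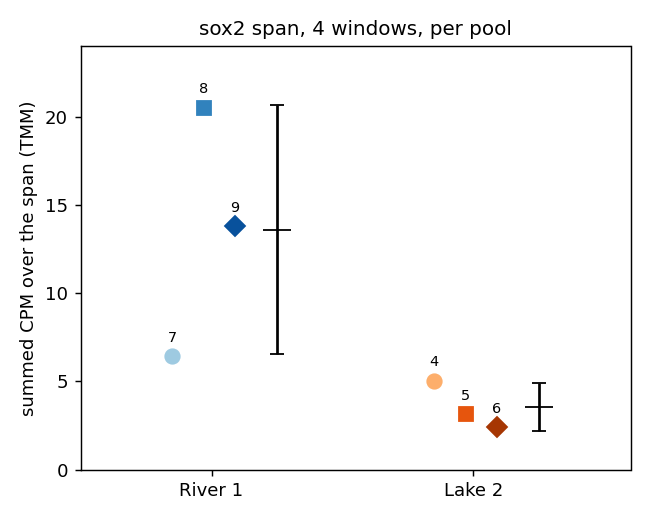
Summed CPM over the 4 windows of the sox2 span (vertical axis) in each pool, with River 1 on the left and Lake 2 on the right; numbers name the pools, and the horizontal mark with its bar is the mean ± SD of 3 pools. Pool 7 (6.43 CPM) sits just above pool 4 (5.05 CPM), while pools 8 and 9 (20.5 and 13.8 CPM) stand well above both.

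Along the contig the reads gathered toward its far end, in the middle windows of the span. The window at 61686901 to 61687000, which had the highest mean over the 6 pools, held 10, 21 and 19 counts in River 1 (pools 7, 8 and 9), against 12, 5 and 4 in Lake 2 (pools 4, 5 and 6). Its raw counts overlapped between the sites, since pool 4 had more than pool 7. Its log2 fold change was 1.42 (standard error 0.38), with 4.51 ± 2.09 CPM in River 1 and 1.54 ± 0.69 CPM in Lake 2 (SD, n = 3 pools each).

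The next window, at 61687001 to 61687100, held 9, 23 and 24 counts in River 1, against 7, 5 and 2 in Lake 2. It was the 1 window of the span in which raw counts did not overlap between the sites, although the exact Poisson intervals of the closest pools did, at 4.12 to 17.1 for the 9 counts of pool 7 and 2.81 to 14.4 for the 7 counts of pool 4 (95%, counting error only). It averaged 5.01 ± 2.54 CPM in River 1 and 1.04 ± 0.44 CPM in Lake 2 (SD, n = 3 pools each). River 1 minus Lake 2 gave 2.15 on the log2 scale (standard error 0.41). It was also the 1 of the 5 windows with at least 10 counts that passed the study's p-value threshold of 1e-05 in this fit, where 0.147% of all tested windows passed and 0.0343% passed with River 1 higher. Nothing is read from that call, which repeats the one by which the span was chosen. It held under 6 of 12 other settings and was lost without pool 6, 8 or 9, with library size in place of TMM, and by DESeq2 and limma-voom.

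The outer windows of the span had fewer reads and the same direction. The region listed by the study ends at 61687185, inside the last window, so that window may hold less than 100 bp of the contig. Whether this lowered its counts was not tested. The last window, at 61687101 to 61687200, held 4, 13 and 13 counts in River 1, against 5, 3 and 2 in Lake 2, and its log2 fold change was 1.72 (standard error 0.51). The first, at 61686801 to 61686900, held 2, 7 and 6 counts in River 1, against 2, 0 and 1 in Lake 2, and its log2 fold change was 2.36 (standard error 0.80). In both, pool 7 had no more counts than pool 4. Just outside the span, the window at 61686701 to 61686800 held 3, 2 and 3 counts in River 1, against 3, 0 and 0 in Lake 2, and its log2 fold change was 1.48 (standard error 0.93). The outermost window, at 61686601 to 61686700, had 1 count in pool 7 of River 1 and 1 in pool 4 of Lake 2, and it was too sparse to enter the fit.

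Of the 4 windows of the span, 3 overlapped between the sites in raw counts and none did in CPM. For the span as a whole, pool 7 came above pool 4 only after scaling by the total count, which was larger in pool 4. Under DESeq2's size factors the span stood at a ratio of 1.31 for pool 7 over pool 4, and under library size alone at 1.22, so the order of the pools was the same under all 3 scalings. All 5 tested windows of the contig were without overlap in CPM with River 1 higher, against 7.74% of all tested windows. The members were chosen on this contrast and share reads, so the count is a description.

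**Figure D2:**
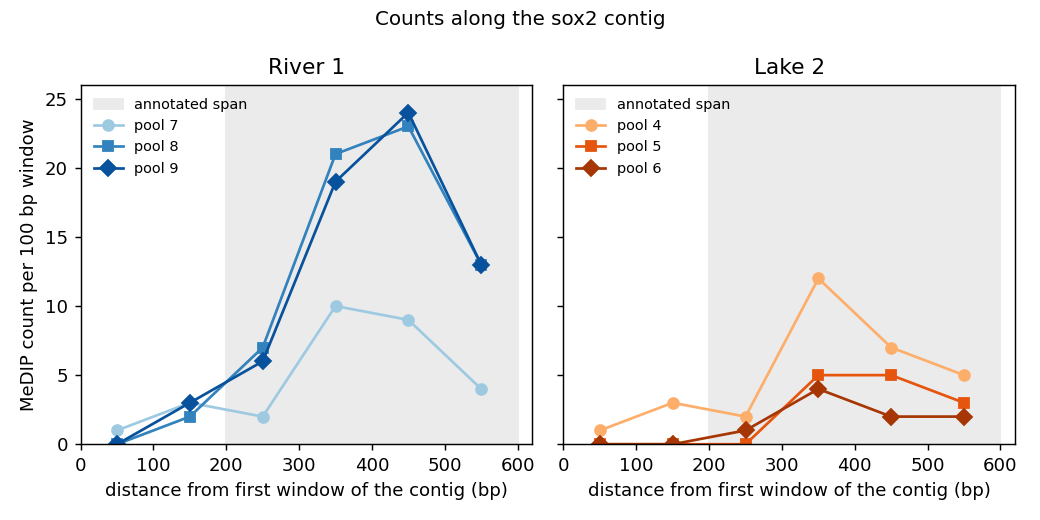
MeDIP counts per 100 bp window (vertical axis) against distance from the first window of the sox2 contig in bp, for the River 1 pools (left) and the Lake 2 pools (right); the grey area is the annotated span. Pools 8 and 9 of River 1 reach 23 and 24 counts, whereas pool 7 of River 1 and pool 4 of Lake 2 peak at 10 and 12 counts.

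Shares along the contig overlapped between the sites. The span took 86.2%, 97.0% and 95.4% of the contig's counts in pools 7, 8 and 9 of River 1, against 86.7%, 100% and 100% in pools 4, 5 and 6 of Lake 2. The 95% Wilson intervals, which cover counting error only, were wide, from 69.4% to 94.5% in pool 7, 70.3% to 94.7% in pool 4 and 70.1% to 100% in pool 6. The 2 flanking windows together had 4, 2 and 3 counts in pools 7, 8 and 9 of River 1, against 4, 0 and 0 in pools 4, 5 and 6 of Lake 2. These counts are too few to say whether the flank followed the level of the span.

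Within the span, the highest window was the one at 61687001 in pools 8 and 9, and the one at 61686901 in pools 7, 4 and 6. In pool 5 both had 5 counts. The window at 61686901 held 40.0%, 32.8% and 30.6% of the span's counts in pools 7, 8 and 9 of River 1, against 46.2%, 38.5% and 44.4% in pools 4, 5 and 6 of Lake 2. These shares overlapped between the sites, and whether the peak shifted was not tested. No window of the contig exceeded 24 counts in any pool, far under the ceiling of 300 counts that the table shows.

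The sox2 windows were set beside other windows with the same mean count over the 6 pools, within 10%. For the window at 61686901 there were 9501 such windows, with a median log2 fold change of -0.14. Of these, 99.2% had a smaller absolute log2 fold change, and 16 had a positive log2 fold change (River 1 higher) of at least 1.42. For the window at 61687001 there were 9113, and only 1 of them reached 2.15. The share of matched windows with a smaller absolute change was 99.2% for the windows at 61686801 and at 61687101, and 87.9% for the flanking window at 61686701. Because the span was chosen for its difference, its place at the edge of these distributions follows from the rule.

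**Figure D3:**
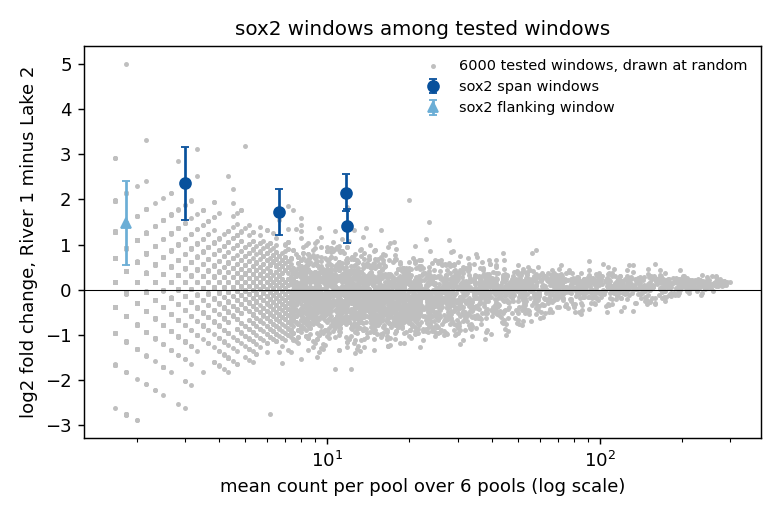
Log2 fold change of River 1 minus Lake 2 (vertical axis) against the mean count per pool over 6 pools (horizontal axis, log scale); grey points are 6000 tested windows drawn at random, dark points the 4 windows of the sox2 span and the triangle the flanking window, with bars of 1 standard error. The 4 windows of the span lie between 1.42 and 2.36, above nearly all windows of the same count. The flanking window lies at 1.48, above 93.3% of the windows of its count.

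The spread among the pools of 1 site was set beside the same matched windows. In the span, the coefficients of variation among River 1 pools were 63.3%, 46.4%, 50.8% and 58.5% from its first window to its last, against medians of 52.7%, 28.3%, 28.4% and 35.7% in the matched windows, of which 63.5%, 83.6%, 87.9% and 82.8% varied less. The flanking window at 61686701 went the other way, with 9.95% among River 1 pools from 2 or 3 counts each. Because the spread falls as counts rise and River 1 had the higher counts, windows were also matched on the mean of River 1 alone, which was added after seeing the data. Then 80.4%, 93.4%, 97.0% and 94.0% varied less. Among Lake 2 pools the coefficients in the span were 90.8%, 44.6%, 42.2% and 29.1%. Of the windows matched on the mean of all pools, 89.0%, 90.9%, 87.8% and 46.2% varied less among Lake 2 pools. With windows matched on the Lake 2 mean, 20.3%, 74.8%, 53.0% and 21.2% varied less. The first of these coefficients, however, rests on Lake 2 counts of 2, 0 and 1. Windows with so low a Lake 2 mean reached 10 counts in all only through higher counts in River 1. Nothing is therefore read from the 20.3%. Among River 1 pools the span thus varied more than most windows of its count under both matchings. Among Lake 2 pools, in the other windows of the span, the outcome depended on the matching and on the window. With 3 pools per site, a coefficient of variation is itself imprecise.

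Pool 7 was the lowest of the River 1 pools in each window of the span. The ratio of pool 7 to the mean of pools 8 and 9 was taken with 0.5 CPM added to both. From the first window of the span to the last, this ratio was lower than at sox2 in 6.04%, 2.27%, 0.691% and 1.30% of the matched windows. For the flanking window at 61686701 the share was 65.8%. The span was chosen for its difference between the sites, and pool 7 was taken because it was the lowest of River 1. A low ratio is thus in part fixed by the choice, and nothing is read from it. To see where pool 7 lay at other windows, it was left out of the fit. Without pool 7, 536 windows passed 1e-05, and 137 of them were higher in River 1, among them the sox2 window at 61687001. On a log2(CPM + 1) scale on which the Lake 2 mean is 0 and the mean of pools 8 and 9 is 1, pool 7 lay at a median of 0.39 in the 137 windows (quartiles 0.24 and 0.59). In the 4 windows of the sox2 span it lay at 0.27, 0.39, 0.39 and 0.16, and at 0.37 in their sum (0.21 on the CPM scale without the logarithm). These windows were chosen with pools 8 and 9 far above Lake 2, so a value under 1 for pool 7 is in part fixed by the choice, and nothing is read from it.

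Over the whole contig, River 1 averaged 14.4 ± 6.85 CPM and Lake 2 averaged 3.80 ± 1.79 CPM (SD, n = 3 pools each). By runs of 9 empty windows the table falls into 42150 contigs, and the sox2 contig, with 5.89 counts per window and pool, was covered more deeply than 55.2% of the others. Among the 5330 other contigs of 6 windows it ranked lower, above 42.4% of them, so sox2 was a contig of ordinary MeDIP coverage. There were 1739 contigs with a summed count within 10% of the 212 counts of sox2. Of these, 2 had a log2 ratio of River 1 to Lake 2 at least as high as the 1.79 of sox2 (with 0.5 CPM added to each mean), and 9.55% were without overlap with River 1 higher. The sox2 contig holds the span that was chosen for this difference, so its rank among these contigs follows from the rule.

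The contigs beside sox2 in the joined sequence are different transcripts and need not be neighbours in the genome. The one before it, across 9 empty windows, held 6, 7 and 5 counts in River 1 (pools 7, 8 and 9), against 9, 11 and 5 in Lake 2 (pools 4, 5 and 6). The one after it, across 23 empty windows, held 7, 15 and 22 counts in River 1, against 11, 16 and 7 in Lake 2. In both, the counts of the sites overlapped.

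Windows elsewhere whose pools followed the order of sox2 were ranked by the Pearson correlation of log2(CPM + 1) with the summed span over the 6 pools, among 127661 windows with a mean count of at least 3. The correlation exceeded 0.95 in 675 of them, or 0.529%. The 5 highest, each on its own contig, began at 47101501, 15207801, 12089001, 2285601 and 26633201, with correlations of 0.997 to 0.998. Their log2 fold changes were below those of the sox2 span windows, from 0.24 (standard error 0.13) at 12089001 to 1.07 (standard error 0.32) at 2285601. At 2285601 to 2285700 the counts were 12, 20 and 24 in River 1 (pools 7, 8 and 9), against 14, 9 and 7 in Lake 2 (pools 4, 5 and 6). In CPM, pool 7 lay there between pools 8 and 9 and the Lake 2 pools, an order that follows from the ranking. The values were 3.09 CPM in pool 7, 6.41 in pool 8 and 5.35 in pool 9, against at most 2.72 in Lake 2. The 6 points share the libraries and fall into the groups of both sites, so these correlations are a description.

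The region of sox2 was set beside the other regions with a gene name that the study placed in development or transcription. The study called all of them on these same pools, in a list made at a looser p-value threshold than 1e-05. Of the 19 others, 17 were lower in River 1 in their window with the smallest p-value and 2 were higher, with a median log2 fold change of -1.15, against a median of -0.01 over all tested windows. All 6 others in development were lower in River 1, as were 11 of 13 in transcription. The list was chosen by the study on this contrast, so these counts are no independent evidence of a direction. In the whole table, 171 of the 223 windows that passed 1e-05 were lower in River 1 as well. In their windows, 2 of the 19 passed 1e-05 and both were lower in River 1, where 0.113% of all tested windows passed in that direction. The regions were chosen on this contrast, so nothing is read from that count either. One was named for RpL8, a protein of the large ribosomal subunit, and its window at 959501 held 20, 7 and 7 counts in River 1, against 42, 25 and 38 in Lake 2 (log2 fold change -1.44, standard error 0.29). The other was named for AP1B1, a subunit of a clathrin adaptor, and its window at 15737901 held 16, 5 and 13 counts in River 1, against 58, 20 and 45 in Lake 2 (log2 fold change -1.67, standard error 0.29).

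The other 2 regions of the list that were higher in River 1 differed from sox2 in level and size of change. One carries the name Cnot6l, a subunit of the deadenylase complex that shortens the tails of messenger RNA, and had 247 ± 31.9 CPM in River 1 and 180 ± 21.3 CPM in Lake 2 (SD, n = 3 pools each). Over this whole region the log2 ratio was 0.45. The log2 fold change of 0.59 (standard error 0.15) belongs to 1 window, at 1671401, picked by p-value as above. The region named ssr1a, which also carries a transfer RNA name, had 91.9 ± 1.18 CPM in River 1 and 72.5 ± 6.40 CPM in Lake 2 (SD, n = 3 pools each), and its log2 fold change was 0.43 (standard error 0.14).

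Among named regulators of transcription in the list, the regions of TAL2, a helix-loop-helix factor, and of SETD1A, a methyltransferase of histone H3, had lower values in River 1 that did not pass 1e-05. The window of TAL2 at 55162801 held 14, 6 and 7 counts in River 1, against 34, 24 and 19 in Lake 2 (log2 fold change -1.32, standard error 0.31). In the window of SETD1A with the smallest p-value the log2 fold change was -1.20 (standard error 0.25). Over the whole regions the log2 ratios were smaller in size, at -0.83 for TAL2 and -0.23 for SETD1A. Summed over both sites, which also depends on the length of a region, 1 of the 19 others had a lower level than sox2. None of the other 19 had a larger coefficient of variation among the River 1 pools, where their median was 19.3%, against 51.8% for sox2. The spread is larger at low counts, and 18 of the 19 had a higher summed level than sox2. In River 1 alone, however, several of the 19 lay below the 13.6 CPM of sox2, and their spread differed. Among these, AP1B1, at 5.12 ± 2.46 CPM in River 1 and 16.5 ± 6.24 CPM in Lake 2 (SD, n = 3 pools each), came close with 47.9%. LOC101846510 had 46.2% at 10.2 CPM in River 1. XRN1 had only 9.59% at 4.66 CPM in River 1, and CNOT6 had 12.7% at 6.86 CPM. Whether the low level accounts for the spread of sox2 was not tested.

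**Figure D4:**
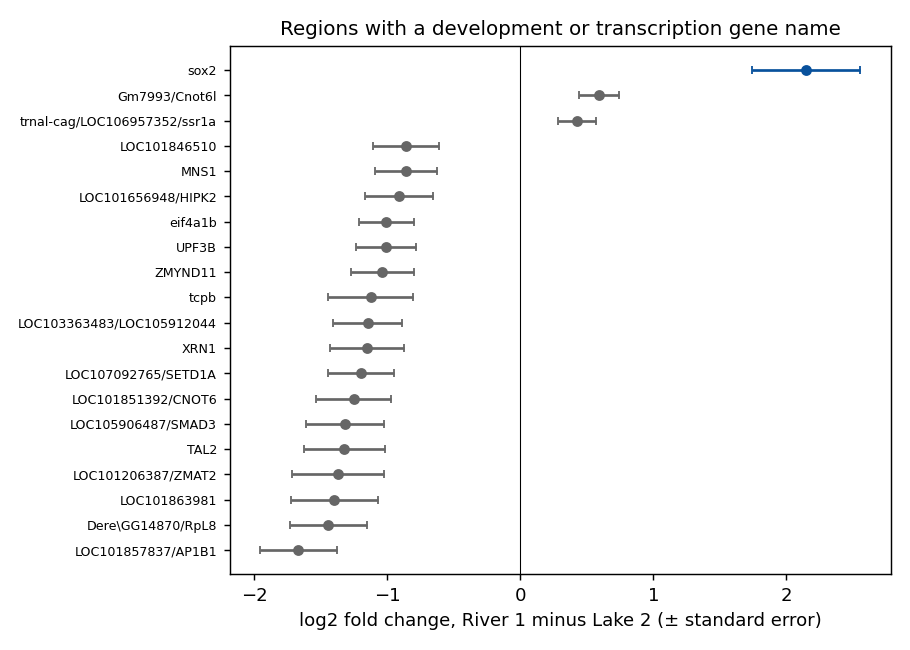
Log2 fold change of River 1 minus Lake 2 (horizontal axis) in the window with the smallest p-value, for sox2 and 19 other regions with a development or transcription gene name (rows), with bars of 1 standard error. sox2 lies at 2.15, 2 regions lie at 0.43 and 0.59, and the other 17 lie below 0.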

How the data were processed

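Bowtie2 placed the MeDIP reads on contigs of a snail transcriptome joined into one sequence, SAMtools sorted them, and MEDIPS gave counts for each 100 bp; versions are not given in the sources used here. The deposited counts are raw and were used for all values. The authors also deposited RPKM values, of which those of Lake 2 served only to find the reads behind the counts, and 3 such columns of River 1 were not used. The authors' own fold changes and p-values in the table were not used.

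Column names of River 1 match the site but not one sample each, so those columns were taken as replicates of the group. The whole table was fitted with edgeR 4.0.16 in R 4.3.3 (quasi-likelihood test, TMM, no covariates, all 6 pools, summed count of at least 10), after a test on simulated data. Standard errors are those implied by the F statistic. Alternatives were DESeq2 1.42.0, limma 3.58.1 (voom), edgeR's exact test, other scalings, a lower count minimum, other contig borders and leaving out each pool. Windows named are all of the sox2 contig and the 5 most like it. Of the gene list, those past the threshold or higher in River 1 are named. TAL2, SETD1A, XRN1, CNOT6 and LOC101846510 were named after their values were seen. The region, lists and comparisons were chosen with earlier results of these data known.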

Additional observations from a re-analysis of the deposited data

How the results depend on the processing

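No alternative turned the direction of the sox2 difference: all 33 values of the span's log2 ratio and of the log2 fold changes of its 2 middle windows stayed positive and moved by less than the spread among pools. Leaving out each pool in turn gave log2 ratios of 1.53 to 2.31 for the span, the lowest without pool 8 and the highest without pool 7. The number of windows past 1e-05 in the whole table, 223 in the fit reported, was 143 with library size in place of TMM, 644 at a summed count of at least 1, 402 by edgeR's exact test, 88 by limma-voom and 10 by DESeq2, and 67 to 536 when 1 pool was left out. Of the River 1 pools, leaving out 7 gave 536 windows, 8 gave 121 and 9 gave 103. Of the Lake 2 pools, leaving out 4 gave 99, 5 gave 295 and 6 gave 67.

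At 61686901, the share of matched windows with a smaller absolute log2 fold change was 99.5% with DESeq2's size factors and 96.6% to 99.9% without single pools. The share that varied less among River 1 pools was 86.7% with DESeq2's size factors, 77.5% with library size, 82.7% with means matched within 25% and 93.4% with River 1 means matched, which was added after seeing the data. Without single pools it was 67.7% to 89.4%, the lowest without pool 7. With contigs parted only at 19 empty windows, sox2 joined 138 other windows and the span took 11.1% of the counts in River 1 and 2.80% in Lake 2. The causes were not tested. No paired analysis was possible, because the pools of the sites are separate groups of snails without pairs. The span rests on 9 to 64 counts per pool, which limits every value given for it.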
